A study of Mus musculus with 18 samples.

Results

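The TGF-β response of aortic smooth muscle cells depleted of Itgav mRNA is described here across all genes. It compares 3 libraries of Itgav siRNA cells given TGF-β with 3 libraries of Itgav siRNA cells left unstimulated, 6 of the 18 libraries of the series. Of the 57180 genes in the deposited table, 15832 had enough counts to be tested. The cells were smooth muscle cells from the thoracic aorta of C57BL/6 mice, grown in culture and transfected with an siRNA against Itgav before the stimulus. A second pair of groups, of 3 libraries each, had received a scramble siRNA, which has no intended target, and was left unstimulated or given TGF-β. It serves below to show where the Itgav siRNA response differed. The remaining 6 libraries, from PDGF-BB-treated cells, entered the fit only through its common estimate of the spread. The labels name 1 siRNA treatment for Itgav, so loss of Itgav and any other effect of that siRNA cannot be told apart. Not given in the sources used here are doses, times, and the age and sex of the mice.

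TGF-β is a secreted cytokine that is stored in the matrix bound to latency proteins. Once released, it binds the type II receptor Tgfbr2, which recruits and activates the type I receptor Tgfbr1, and the proteins SMAD2 and SMAD3 carry the signal to the nucleus. In smooth muscle it is known for raising contractile and matrix genes and for slowing division. Integrin αV, the product of Itgav, pairs with several β chains, binds matrix proteins through their RGD sequence and can release TGF-β from its latent complex. The comparison asks what TGF-β still changed when Itgav mRNA was low.

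The 6 libraries held 18139857 to 20121848 counts each. Along the first principal component of these libraries, which carried 80.4% of the variance, the unstimulated libraries lay at -60.01, -60.47 and -61.52 and the TGF-β libraries at 60.01, 60.8 and 61.19. Levels are given as CPM, the count scaled to the library total after adjustment by a TMM normalization factor. CPM is not divided by gene length and so compares samples, not genes. Marker sums, and the levels of single markers given with them, used factors computed over all genes of the table. The ± after CPM gives the SD (n = 3), and the ± after log2 fold changes gives the standard error. A gene rose or fell when it passed a Benjamini-Hochberg adjusted p of 0.05 in edgeR's quasi-likelihood test. Whether each replicate was its own culture is not in the labels, and the p-values therefore rest on a spread between libraries that may be technical. Mitochondrial transcripts made up 4.23% to 4.48% of the counts of the unstimulated libraries and 3.76% to 3.79% of those with TGF-β. The 10 smooth muscle markers, which include Acta2 and Tagln, summed to 2680 to 2830 CPM without and 6300 to 6400 CPM with TGF-β. Transcripts typical of the labelled cell type were thus present. Cald1, named after its value was seen, went from 1600 to 2870 CPM and was the largest part of that sum. Of the 10 smooth muscle markers, 7 rose and 3 fell (median 0.85). The 3 that fell were Myh11, Des and Lmod1. Adventitial fibroblast markers (10 of 10 tested) summed to 1070 to 1100 CPM without and 799 to 862 CPM with TGF-β. Gsn, named after its value was seen, went from 896 to 726 CPM and made up most of that sum. Of these 10 markers, 3 rose, 6 fell and 1 did not pass (median -0.76). Mesothelial markers (7 of 8 tested, Krt8 at 0 without TGF-β) summed to 95.0 to 97.8 and 28.4 to 33.5 CPM, and endothelial markers (11 of 11 tested) to 86.7 to 104 and 116 to 123 CPM. One endothelial marker, the factor Erg, named after its value was seen, went from 6.05 to 46.1 CPM and carried the rise of that sum. Of the 11, 3 rose and 5 fell (median -0.29), and 3 fell without Itgav siRNA unstimulated replicate 1. Adipocyte and Schwann cell markers summed to at most 11.1 and 21.9 CPM and lymphocyte markers to at most 0.351 CPM, and cardiomyocyte markers to medians of 11.8 CPM without and 12.7 CPM with TGF-β. In bulk RNA, fewer cells of a type and less RNA per cell cannot be told apart.

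Itgav itself stood at 14.8, 14.1 and 16.4 CPM in unstimulated siRNA cells and at 26.1, 29.7 and 25.3 CPM with TGF-β. All 3 TGF-β libraries lay above the unstimulated ones, and all 6 lay far below the scramble cells, whose group means were 316 ± 14.2 CPM without and 524 ± 45.6 CPM with TGF-β. TGF-β raised the remaining transcript 1.79-fold (log2 fold change 0.84 ± 0.1, edgeR adjusted p = 2.2e-07). The response did not differ past the threshold from the one in scramble cells (difference of log2 fold changes 0.11 ± 0.12, edgeR adjusted p = 0.58).

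With Itgav depleted, TGF-β still changed 9101 genes, 57.5% of those tested. Of these, 4421 (27.9%) were higher and 4680 (29.6%) lower, and the median log2 fold change over all genes was -0.02. At least 2-fold changes were found in 1287 genes that rose (8.13%) and 1478 that fell (9.34%). Matrix, matricellular and cartilage genes, genes of protein folding in the endoplasmic reticulum and TGF-β's own feedback inhibitors held more risers than fallers. Interferon, antigen presentation, complement, xenobiotic and cell cycle genes held more fallers.

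**Figure D1:**
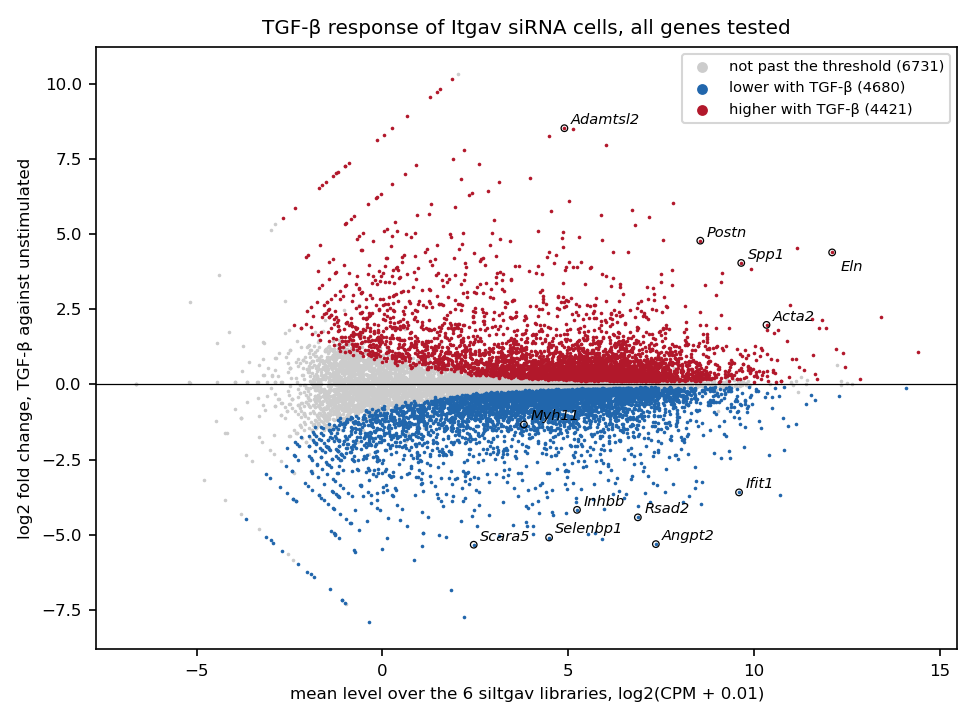
Log2 fold change with TGF-β in Itgav siRNA cells (vertical axis) against the mean level over the 6 libraries, as log2 of CPM plus 0.01 (horizontal axis); each point is 1 of the 15832 genes tested, red for the 4421 higher, blue for the 4680 lower and grey for the rest. Eln, Spp1 and Postn are among the labelled risers and Ifit1, Angpt2 and Rsad2 among the labelled fallers.

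Over all genes tested, log2 fold changes ran from -7.89 to 10.31. The 10 largest rises described here were taken among called genes that averaged at least 5 CPM over the 6 libraries. A gene that rises this much can pass that floor only through its TGF-β libraries, so its low start is part of the choice. Adamtsl2, a secreted glycoprotein of the microfibril-associated ADAMTS-like family, stood at 0.161, 0.251 and 0.0518 CPM in the unstimulated libraries and at 59.3, 62.6 and 56.2 CPM with TGF-β. Every TGF-β library lay far above every unstimulated one (log2 fold change 8.52 ± 0.22, edgeR adjusted p = 6.4e-19). Olr1, a receptor for oxidised lipoprotein, went from 0.514 ± 0.259 to 130 ± 6.77 CPM, and the ion transport regulator Fxyd6 from 0.189 ± 0.0766 to 70.3 ± 4.01 CPM. The cadherins Cdh10 and Cdh6 reached 44.5 ± 2.13 and 10.5 ± 0.225 CPM, and Heyl, a transcription factor downstream of Notch, reached 17.3 ± 0.79 CPM. Klhl1, Olfm2, the TNF receptor family member Cd40 and the chemokine Ccl17 completed the 10, with log2 fold changes of 7.32, 6.86, 6.44 and 6.29. The unstimulated sums of these 10 genes over 3 libraries were only 4 to 30 counts, so the size of their folds is imprecise.

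The 10 largest falls were taken with the same floor, which such genes can pass only through their unstimulated libraries. Angpt2, a secreted ligand of the endothelial receptor Tie2, stood at 338, 313 and 309 CPM unstimulated and at 8.29, 8.28 and 7.65 CPM with TGF-β. The groups lay far apart, a 39.6-fold fall (log2 fold change -5.31 ± 0.062, edgeR adjusted p = 2.9e-24). The ferritin receptor Scara5 (-5.33 ± 0.25), the interferon-induced GTPase Gbp6 (-5.14 ± 0.18), the selenium-binding protein Selenbp1 (-5.09 ± 0.11) and Mpeg1, a pore-forming protein best known from macrophages (-5.03 ± 0.32), fell as well. Aldh3a1 and Fmo2, both enzymes of xenobiotic metabolism, fell from 89.8 ± 2.91 to 2.84 ± 0.629 CPM and from 102 ± 1.96 to 3.33 ± 0.279 CPM. Phf11b, the cytokine Tnfsf15 and the cytochrome Cyp2s1 had log2 fold changes of -4.97, -4.72 and -4.71. Scara5 is also one of the adventitial markers whose sum is given above, and the part of that sum in its fall was not tested. All 20 genes of both groups were chosen among those whose libraries did not overlap between conditions, which was so in the higher direction for 31.2% and in the lower direction for 33.4% of all genes tested.

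The gene lists that follow were written with earlier results of these data known. Each count is to be read beside the 27.9% of all genes that were higher and the 29.6% that were lower. Members from a list's smaller side, and Il11, Has2, Myocd, Id3, Id4, Smad2, Smad4, Cxcl1, Tns2 and Vcl, were named after their values were seen.

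**Figure D2:**
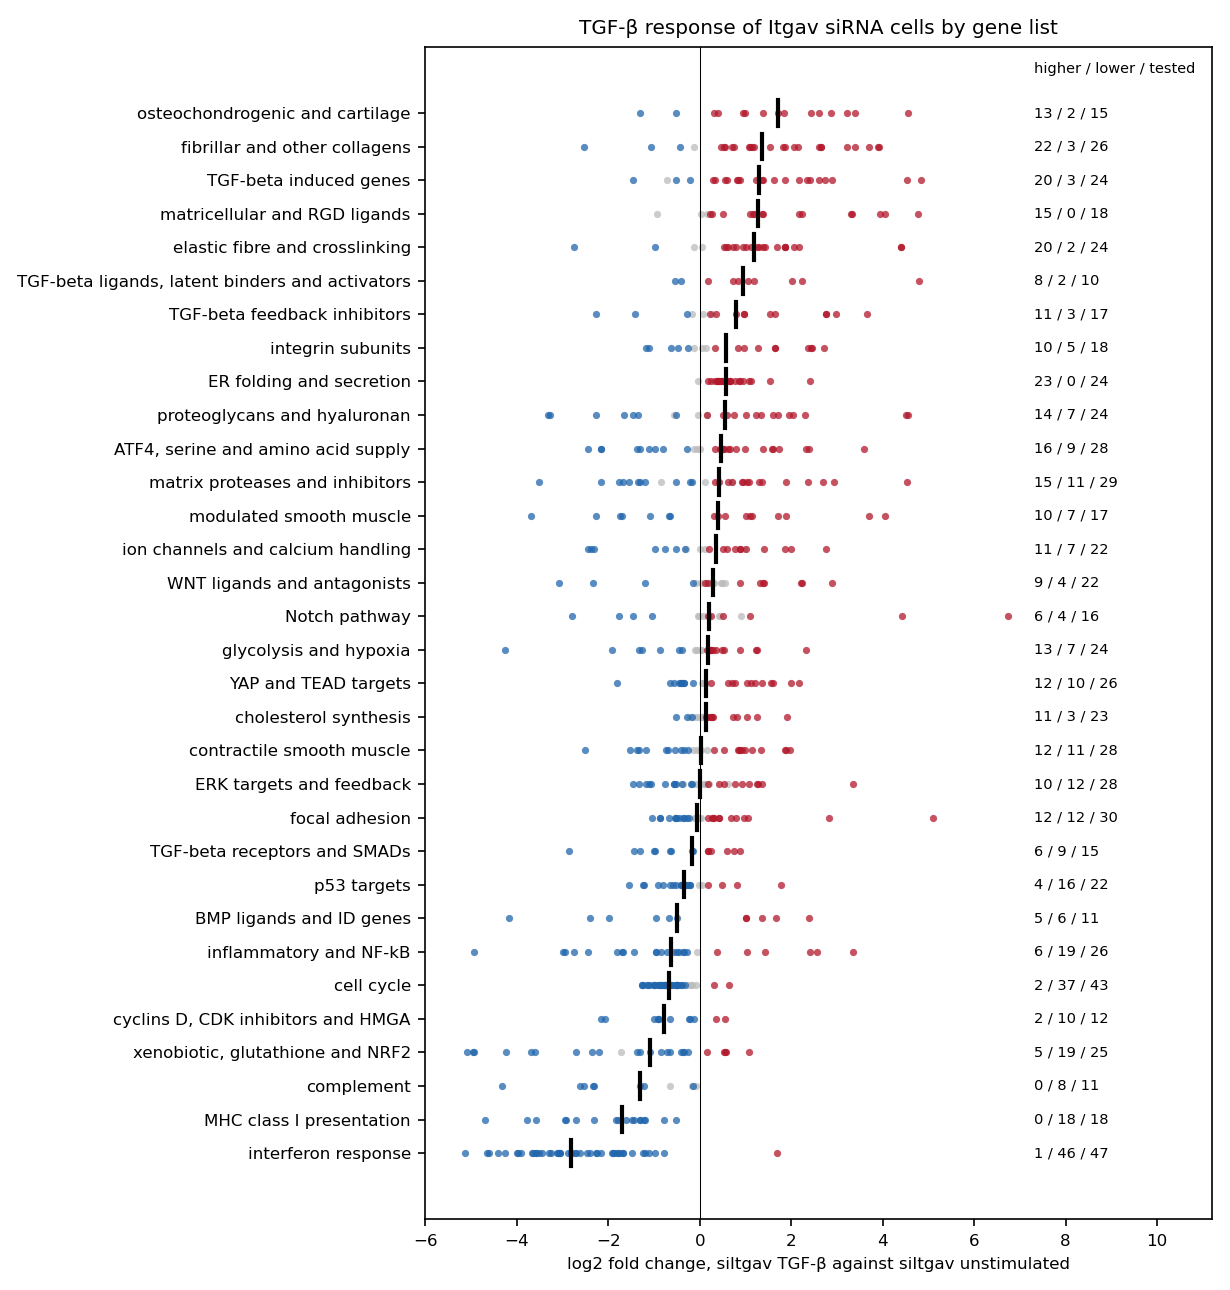
Log2 fold change with TGF-β in Itgav siRNA cells (horizontal axis) for the members of 32 gene lists (rows, ordered by median); each point is a gene, red higher, blue lower, grey not past the threshold, black bars are list medians, and the numbers at the right count members higher, lower and tested. The medians run from 1.72 for osteochondrogenic and cartilage genes to -2.81 for interferon response genes.

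The signalling pathway itself changed at several levels. Of 10 tested ligands, latent binders and activators, 8 rose and 2 fell (median log2 fold change 0.94). Tgfb1, the ligand's own gene, stood at 28.9, 30.2 and 27.6 CPM in unstimulated libraries and at 117, 115 and 119 CPM with TGF-β. The groups did not overlap and the rise was 4.05-fold (2.02 ± 0.061, edgeR adjusted p = 1.2e-17). Ltbp2, a fibrillin-binding relative of the latent TGF-β binding proteins, rose 27.7-fold from 13.1 ± 0.569 to 365 ± 13.9 CPM. Thbs1, a matrix glycoprotein that can activate latent TGF-β, went from 3810 ± 19.7 to 17900 ± 1160 CPM (2.23 ± 0.084), and the latent binder Ltbp3 rose 2.28-fold. The 2 that fell were Lrrc32 (-0.55), which holds latent TGF-β at the cell surface, and the ligand Tgfb2 (-0.40).

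All 15 tested receptors and SMADs passed, 6 higher and 9 lower (median -0.18). The type II receptor Tgfbr2 fell from 341 ± 6.63 to 137 ± 3.99 CPM (-1.31 ± 0.052), the co-receptor Tgfbr3 from 53.9 ± 4.19 to 7.45 ± 0.193 CPM (-2.85 ± 0.099) and the signal carrier Smad3 from 119 ± 0.802 to 44.4 ± 0.936 CPM (-1.43 ± 0.053). The type I receptor Acvrl1 fell 2.0-fold, whereas the type I receptor Tgfbr1 rose (0.60) and Smad2 and the common partner Smad4 fell slightly (-0.18 and -0.15).

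Of 17 feedback inhibitors, 11 rose, 3 fell and 3 did not pass (median 0.79). Skil, a repressor of SMAD transcription, stood at 31.5, 31.7 and 32.9 CPM and then at 219, 218 and 216 CPM. Its groups lay 6.79-fold apart without overlap (2.76 ± 0.077, edgeR adjusted p = 3.3e-18). Pmepa1, which sequesters SMADs (2.97 ± 0.051), the activin antagonist Fstl3 (3.66 ± 0.061) and the inhibitory SMAD Smad7 (0.97 ± 0.058) rose too. The proteoglycan Dcn, which binds TGF-β, the BMP antagonist Grem1 and the inhibitory SMAD Smad6 fell (-2.26, -1.41 and -0.28).

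Of 24 genes known to be induced by TGF-β, 20 rose, 3 fell and 1 did not pass (median 1.29). Nox4, an oxidase that makes hydrogen peroxide, stood at 44.9, 44.2 and 46.2 CPM in unstimulated libraries and at 339, 344 and 328 CPM with TGF-β. That was a 7.47-fold rise with no overlap (2.90 ± 0.064, edgeR adjusted p = 5.7e-20). Il11, a cytokine of the interleukin 6 family, had the largest rise of the list (4.83), from a low 0.606 to 17.4 CPM. The prostaglandin synthase Ptgs2 rose 5.31-fold and the matricellular protein Ccn2 4.51-fold. The repressor Snai2 (-1.46), Angptl4 (-0.51) and the CDK inhibitor Cdkn1a (-0.22) fell. Of 11 tested BMP, activin and ID genes, 5 rose and 6 fell (median -0.50). The ID genes, repressors that BMP signals induce, fell: Id2 from 60.0 ± 4.4 to 11.3 ± 0.781 CPM (-2.41 ± 0.079), Id1 from 64.3 ± 2.5 to 16.3 ± 1.7 CPM (-1.98 ± 0.073), Id4 (-0.96) and Id3 (-0.50). Inhbb, the activin βB chain, fell 18-fold from 71.4 ± 1.18 to 3.96 ± 0.264 CPM, while Inhba, the βA chain, and the ligand Bmp2 rose (1.01 and 2.39). Bmp2 was low throughout, at 0.551 CPM unstimulated and 2.93 CPM with TGF-β.

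The contractile genes split. Of 28 tested, 12 rose, 11 fell and 5 did not pass (median 0.02). Acta2, smooth muscle actin (ENSMUSG00000035783, chromosome 19, 34241090 to 34255590, minus strand, GRCm38), stood at 518, 505 and 550 CPM unstimulated and at 2030, 2040 and 2120 CPM with TGF-β. The groups did not overlap and the rise was 3.94-fold (1.98 ± 0.042, edgeR adjusted p = 3.6e-20). The actin-binding Tagln rose 3.7-fold from 273 ± 28.5 to 1010 ± 36 CPM, tropomyosin Tpm1 2.21-fold, the LIM protein Pdlim7 2.51-fold and calponin Cnn1 1.98-fold, from 9.40 ± 1.73 to 18.6 ± 2.45 CPM. Myocd, the coactivator of contractile genes, rose at a low level, from 1.55 to 2.87 CPM (0.88).

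Myh11, the smooth muscle myosin heavy chain and a marker of the mature contractile state (ENSMUSG00000018830, chromosome 16, 14194535 to 14291372, minus strand, GRCm38), moved the other way. It stood at 18.7, 21.0 and 20.2 CPM unstimulated and at 8.29, 8.06 and 7.54 CPM with TGF-β. Every TGF-β library lay below every unstimulated one, a 2.51-fold fall (-1.33 ± 0.13, edgeR adjusted p = 7.1e-09). The intermediate filament Des (-2.50), the myosin kinase Mylk (-1.52), the LIM protein Csrp1 (-1.38) and the integrin chain Itga8 (-1.17) fell as well. The coactivators Mrtfa (-0.25) and Mrtfb (-0.35) fell slightly.

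**Figure D3:**
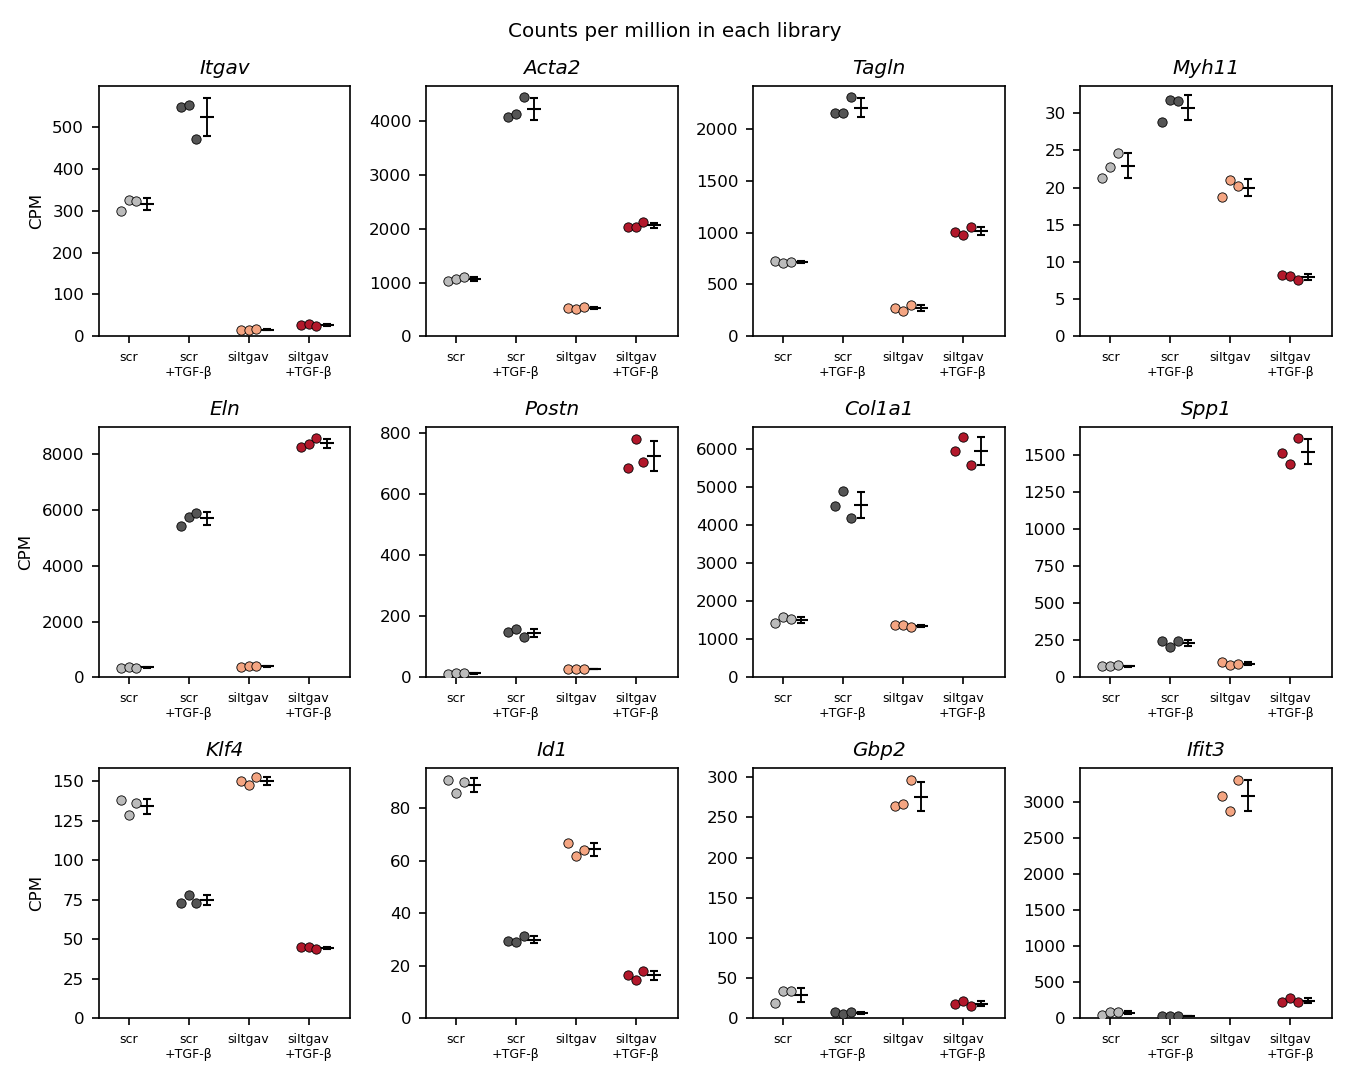
CPM of 12 genes (vertical axes, linear, from 0) in each library of the 4 groups with scramble siRNA (scr) or Itgav siRNA (siItgav), without or with TGF-β; points are libraries, dashes with bars are means with SD over 3. Acta2 and Tagln rose from a lower start in Itgav siRNA cells, Myh11 fell in Itgav siRNA cells and rose in scramble cells, and Gbp2 and Ifit3 stood highest in unstimulated Itgav siRNA cells.

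Matrix genes rose on a wide front. Of 26 collagen chains tested, 22 rose, 3 fell and 1 did not pass (median 1.35). Col1a1, a chain of type I collagen, stood at 1360, 1370 and 1330 CPM unstimulated and at 5950, 6320 and 5580 CPM with TGF-β. It rose 4.39-fold without overlap (2.14 ± 0.06, edgeR adjusted p = 3.6e-18). Col5a2, a chain of type V collagen, rose 6.28-fold to 3460 ± 155 CPM and the type III chain Col3a1 2.21-fold to 1190 ± 50.8 CPM. The anchoring fibril collagen Col7a1 had the largest rise of the list (3.92 ± 0.1), to 65.3 ± 2.36 CPM. Col14a1, Col6a2 and Col6a1 fell (-2.54, -1.06 and -0.43).

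Of 24 elastic fibre and crosslinking genes, 20 rose, 2 fell and 2 did not pass (median 1.19). Eln, the elastin gene (ENSMUSG00000029675, chromosome 5, 134702593 to 134747323, minus strand, GRCm38), stood at 374, 407 and 416 CPM and then at 8250, 8360 and 8560 CPM. TGF-β raised it 21-fold with no overlap (4.39 ± 0.056, edgeR adjusted p = 1.2e-23). The microfibril protein Mfap4 rose 21.1-fold, the lysyl oxidase family member Loxl3 4.16-fold and the prolyl hydroxylase P3h1 4.46-fold. The fibulins Efemp1 and Fbln1 fell, Efemp1 from 595 ± 14 to 88.6 ± 3.52 CPM (-2.75 ± 0.042) and Fbln1 by less (-0.97).

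Among matricellular proteins and RGD ligands, which include proteins that integrin αV binds, 15 of 18 rose, none fell past the threshold and 3 did not pass (median 1.27). Periostin (Postn, ENSMUSG00000027750, chromosome 3, 54361109 to 54391037, plus strand, GRCm38) stood at 26.7, 26.0 and 26.2 CPM and then at 687, 782 and 707 CPM. The groups lay 27.6-fold apart (4.78 ± 0.092, edgeR adjusted p = 5.6e-21). Osteopontin (Spp1, ENSMUSG00000029304, chromosome 5, 104435118 to 104441050, plus strand, GRCm38) rose 16.4-fold to 1520 ± 83.7 CPM, the WNT-induced Ccn4 9.9-fold, and fibronectin (Fn1) 2.14-fold from 13900 ± 614 to 29600 ± 1280 CPM.

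Proteoglycans and hyaluronan genes went both ways, with 14 of 24 higher and 7 lower (median 0.55). The large proteoglycans Acan (4.56 ± 0.18) and Vcan (2.30 ± 0.097) and the hyaluronan synthase Has2 (4.51, from 0.349 to 8.02 CPM) rose. The small leucine-rich proteoglycans did not move as a block. Prelp (-3.32), Ogn (-3.27), Dcn (-2.26), Omd (-1.65) and Fmod (-1.35) fell. Named after their values were seen, Bgn (0.59, from 4470 to 6730 CPM), Aspn (2.04) and the low Lum (1.0) rose, and Podn did not pass. The adventitial marker sum given above, which includes Lum, fell, and its part in the falls of this list was not tested. Of 29 proteases and inhibitors, 15 rose and 11 fell (median 0.42). The gelatinase Mmp2 rose 2.44-fold to 510 ± 8.7 CPM and the inhibitor Timp1 3.7-fold to 789 ± 28.9 CPM. The stromelysin Mmp3 fell at a low level, from 2.37 to 0.205 CPM (-3.52).

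Of 18 tested integrin chains, 10 rose, 5 fell and 3 did not pass (median 0.58). Of the β chains that pair with αV, Itgb3 stood at 51.9, 50.4 and 50.4 CPM and then at 277, 283 and 280 CPM. It rose 5.5-fold without overlap (2.46 ± 0.061, edgeR adjusted p = 3.8e-19). Itgb5 rose 2.43-fold to 1480 ± 36.9 CPM and Itgb1 1.96-fold to 4090 ± 23 CPM, while Itgb8 fell 2.14-fold to 10.5 ± 1.42 CPM. The collagen-binding chain Itga11 rose 6.59-fold and Itga5, which binds fibronectin, 3.12-fold to 276 ± 13.6 CPM. Of 30 focal adhesion genes 12 rose and 12 fell (median -0.06). The scaffold Nedd9 rose 7.05-fold and the actin crosslinker Actn1 2.09-fold, while tensin Tns2 and vinculin (Vcl) fell (-1.04 and -0.67). Of 26 genes of the YAP and TEAD list 12 rose and 10 fell (median 0.13). Its secreted members Ccn1 and Ccn2 and the ankyrin repeat protein Ankrd1 rose (1.37 ± 0.04, 2.17 ± 0.039 and 1.99 ± 0.048).

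Genes that mark smooth muscle cells leaving the contractile state did not move as a block. Of 17 tested, 10 rose and 7 fell (median 0.39). Tnfrsf11b, osteoprotegerin, rose 13.1-fold to 1050 ± 62.5 CPM and Mgp, an inhibitor of calcification, 3.29-fold to 2270 ± 120 CPM. Klf4, a transcription factor of modulated cells, stood at 150, 148 and 153 CPM and then at 44.9, 45.1 and 43.6 CPM. It fell 3.37-fold without overlap (-1.75 ± 0.048, edgeR adjusted p = 2.3e-18), and the surface marker Ly6a fell too (-3.70). Of 15 osteochondrogenic and cartilage genes, 13 rose and 2 fell (median 1.72). The cartilage collagens Col11a1 and Col2a1 rose 10.5-fold and 9.27-fold and the sulfotransferase Chst11 7.26-fold, while the cartilage matrix gene Matn4 and the factor Sox5 fell (-1.31 and -0.53).

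In the Notch pathway 6 of 16 rose and 4 fell (median 0.21). Beside Heyl, the receptor Notch4 rose from 1.99 ± 0.165 to 42.6 ± 1.77 CPM (4.42 ± 0.16), while Notch3, the receptor typical of smooth muscle, fell (-1.46). Of 22 WNT genes 9 rose and 4 fell (median 0.29). The ligand Wnt5a (2.22 ± 0.077), the receptor Fzd1 (2.23 ± 0.071) and the antagonist Dkk2 (2.89 ± 0.15) rose, and the ligand Wnt4 fell (-3.08).

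Genes induced by interferon, which cells use against viruses, had the lowest median of the 32 lists. Of 47 tested members, 46 fell and 1 rose, with a median of -2.81 against -0.02 over all genes. Ifit3 is an antiviral protein (ENSMUSG00000074896, chromosome 19, 34583531 to 34588731, plus strand, GRCm38). It stood at 3070, 2870 and 3300 CPM in unstimulated siRNA cells and at 225, 279 and 227 CPM with TGF-β. The groups lay 12.7-fold apart (-3.66 ± 0.18, edgeR adjusted p = 5.3e-14). Viperin (Rsad2, ENSMUSG00000020641, chromosome 12, 26442746 to 26456452, minus strand, GRCm38) stood at 275, 185 and 212 CPM and then at 8.35, 16.6 and 6.58 CPM. All 3 TGF-β libraries were low, a 21.3-fold fall (-4.42 ± 0.23, edgeR adjusted p = 2.1e-13). Ifit1 fell 12.1-fold, the GTPase Gbp2 15.1-fold from 276 ± 18.1 to 18.3 ± 3.27 CPM and Parp14 8.26-fold. The member that rose was Ifi27, from 68.5 ± 5.99 to 220 ± 5.48 CPM (1.68 ± 0.085). Near-identical copies such as Ifit3 and Ifit3b, or neighbouring Gbp and Oas genes, could share reads, so their single values are uncertain.

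These falls started from a high level. The median of the 47 members' group means was 171 CPM in unstimulated Itgav siRNA cells and 31.9 CPM with TGF-β, against 17.0 and 6.10 CPM in scramble cells. Ifit3 in scramble cells stood at 52.2, 93.0 and 88.7 CPM unstimulated and at 30.3, 26.2 and 35.5 CPM with TGF-β, below every Itgav siRNA library. Macrophage markers (5 of 10 tested, C1qa and C1qb at 0 in the unstimulated siRNA libraries) summed to 19.8 to 21.2 CPM without and 12.2 to 14.8 CPM with TGF-β. Of the 5, 2 rose, 2 fell and 1 did not pass (median -0.16), and a count of this list moved under the alternatives given below. Named after their values were seen, Lyz2 went from 11.1 to 5.57 CPM, Cd14 from 5.16 to 2.33 CPM and Cd68 from 2.15 to 3.14 CPM. The part of macrophage markers in the interferon falls was not tested.

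**Figure D4:**
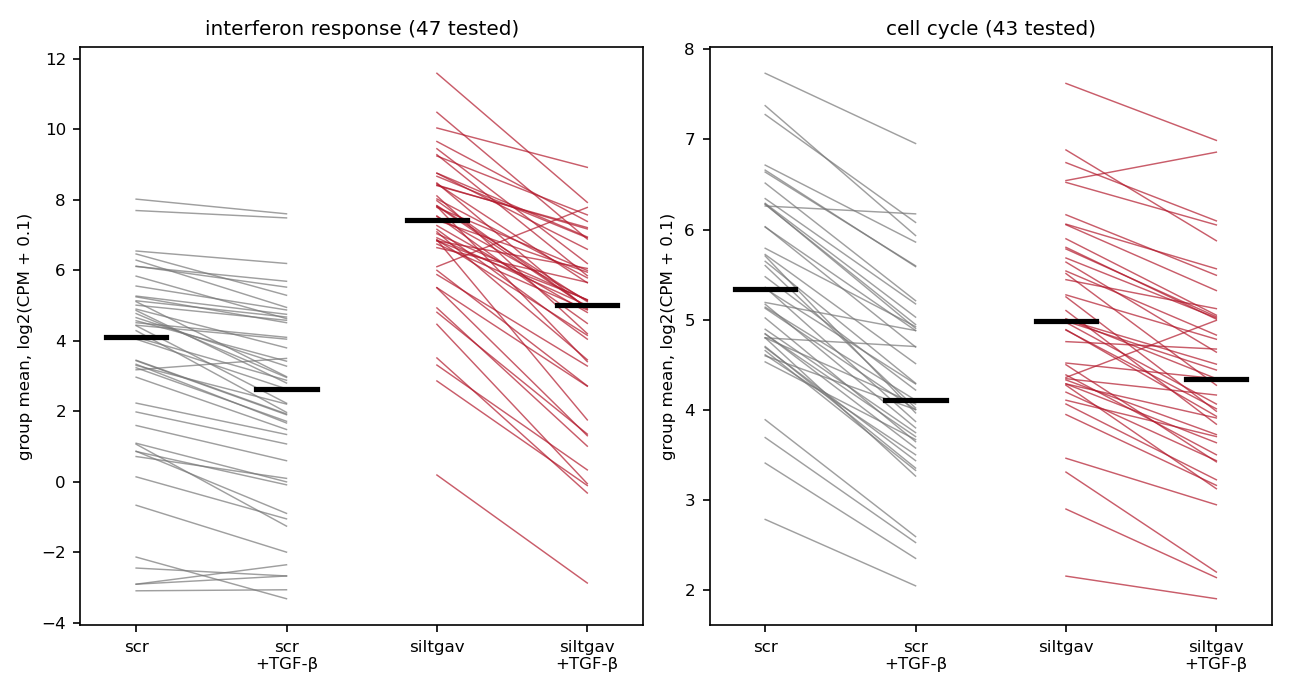
Group means of the 47 interferon response genes (left) and the 43 cell cycle genes tested (right), as log2 of CPM plus 0.1, in scramble (scr) and Itgav siRNA (siItgav) cells without and with TGF-β; each line joins a gene's 2 group means and black bars are medians. The interferon median fell from 171 to 31.9 CPM in Itgav siRNA cells, and the cell cycle median from 31.5 to 20.2 CPM there and from 40.5 to 17.1 CPM in scramble cells.

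The promoters of 4 of these fallers are shown because they carry letters that interferon-regulated factors are known to read. Of the 47 members, 32 matched a RefSeq window on GRCm38.p6, and 18 of these (56.2%) held the interferon-stimulated response element. It was searched on both strands in the 250 bases before the start of transcription, as GAAA, any 2 bases and GAAA again. Of the 11202 tested genes with a window 3.2% held it, of those that fell at least 2-fold 8.24%, and of those that rose at least 2-fold 2.76%. The 18 list members with the element are among those that fell at least 2-fold, so these shares are not separate from that of the list. The windows follow, 5′ to 3′ on the gene's strand, with matches on either strand in capitals. They are chr12:26456453-26456702 on the minus strand for Rsad2, chr3:142620413-142620662 on the plus strand for Gbp2, chr19:34583279-34583528 on the plus strand for Ifit3 and chr19:34640639-34640888 on the plus strand for Ifit1.
Rsad2: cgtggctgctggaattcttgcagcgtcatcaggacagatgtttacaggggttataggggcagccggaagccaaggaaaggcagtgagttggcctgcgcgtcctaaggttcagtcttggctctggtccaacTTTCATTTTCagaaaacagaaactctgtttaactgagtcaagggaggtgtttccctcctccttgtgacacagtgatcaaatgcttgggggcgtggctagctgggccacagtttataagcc
Gbp2: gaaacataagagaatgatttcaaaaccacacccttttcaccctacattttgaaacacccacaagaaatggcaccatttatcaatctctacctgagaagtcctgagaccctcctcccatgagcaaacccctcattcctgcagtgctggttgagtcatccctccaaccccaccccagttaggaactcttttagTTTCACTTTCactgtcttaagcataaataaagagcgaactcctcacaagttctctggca
Ifit3: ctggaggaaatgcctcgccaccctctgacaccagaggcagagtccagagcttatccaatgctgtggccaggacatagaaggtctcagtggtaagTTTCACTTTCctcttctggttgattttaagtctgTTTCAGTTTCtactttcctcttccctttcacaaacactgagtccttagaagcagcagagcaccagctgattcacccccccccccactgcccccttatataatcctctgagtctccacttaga
Ifit1: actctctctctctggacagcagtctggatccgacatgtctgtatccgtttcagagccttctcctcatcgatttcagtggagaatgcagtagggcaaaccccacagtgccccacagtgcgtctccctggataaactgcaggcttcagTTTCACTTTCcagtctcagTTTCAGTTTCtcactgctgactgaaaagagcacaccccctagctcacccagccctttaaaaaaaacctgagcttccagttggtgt
Rsad2 and Gbp2 held 1 match each, with 110 and 49 bases between it and the start. Ifit3 and Ifit1 held 2 matches each, with 112 and 75 bases between the nearer one and the start. A match describes the letters and does not show binding. In the genes that rose at least 2-fold, the AP-1 letters TGANTCA stood in 10.4% of windows (5.8% of all tested genes) and the SMAD letters CAGACA in 23.2% (16.2% of all), both strands searched. In the genes that fell at least 2-fold these shares were 8.83% and 16.8%, and in the interferon list 25.0% and 28.1%.

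Antigen presentation by MHC class I, which interferon also induces, fell throughout its list: 18 of 18 members were lower (median -1.70). The peptide transporter Tap1 fell from 89.4 ± 3.46 to 25.8 ± 2.43 CPM (-1.79 ± 0.095), H2-T22 3.57-fold, the proteasome activator Psme2 2.46-fold and Nlrc5, the transactivator of these genes, 6.55-fold. Reads of similar H2 genes may be shared. Of 26 inflammatory and NF-κB genes, 19 fell, 6 rose and 1 did not pass (median -0.64). The adhesion molecule Vcam1 stood at 953, 915 and 894 CPM and then at 271, 282 and 292 CPM. It fell 3.27-fold without overlap (-1.71 ± 0.047, edgeR adjusted p = 3e-18). The monocyte chemokines Ccl2 and Ccl7 fell 3.22-fold and 3.47-fold and the neutrophil chemokine Cxcl1 fell too (-4.94), while the cytokine Il6 rose (3.36). Of 11 complement genes, 8 fell, none rose and 3 did not pass (median -1.31). C3, the central component, fell from 67.5 ± 7.59 to 13.4 ± 0.412 CPM, and C4b fell 6.11-fold.

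Division genes fell by modest amounts. Of 43 cell cycle genes, 37 fell, 2 rose (Tyms, 0.64, and Mcm6, 0.32, both of DNA synthesis) and 4 did not pass (median -0.67). Mki67, a marker of dividing cells, stood at 113, 134 and 108 CPM and then at 61.7, 59.1 and 54.9 CPM. The groups did not overlap and the fall was 2.02-fold (-1.01 ± 0.071, edgeR adjusted p = 3.4e-11). The mitotic regulators Cdc20 and Nusap1 fell 2.41-fold and 2.4-fold. Among 12 D cyclins, CDK inhibitors and HMGA genes, 10 fell and 2 rose (median -0.78). Ccnd1, which drives entry into the cycle, fell 4.23-fold from 1370 ± 37.3 to 324 ± 4.48 CPM, and Ccnd2 and Ccnd3 1.89-fold each. Of 28 ERK targets and feedback genes 10 rose and 12 fell (median 0.00). The feedback inhibitors Spry2, Dusp6 and Dusp1 fell 2.74-fold, 2.52-fold and 2.25-fold. Of the immediate early factors, Egr1 fell 2.15-fold and Egr2 rose (3.36).

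The secretory and metabolic lists differed in direction. Of 24 genes of folding and secretion in the endoplasmic reticulum, 23 rose, none fell past the threshold and 1 did not pass (median 0.57). Creb3l2, a factor that supports secretion, rose 5.31-fold to 626 ± 24.9 CPM, the retrieval receptor Kdelr3 2.88-fold, the disulfide isomerase P4hb 2.19-fold and the stress factor Xbp1 2.09-fold. Of 28 genes of the ATF4 and amino acid supply list, 16 rose and 9 fell (median 0.47). The mitochondrial folate enzymes Aldh1l2 and Mthfd2 rose 12.1-fold and 3.31-fold, and Aldh18a1, an enzyme of proline synthesis, 3.03-fold, while the stress factor Atf3 fell (-2.15). Of 25 xenobiotic, glutathione and NRF2 genes, 19 fell, 5 rose and 1 did not pass (median -1.08). Gstm1, a glutathione transferase, went from 247 ± 8.72 to 20.3 ± 0.379 CPM, a 12.2-fold fall without overlap (-3.61 ± 0.056, edgeR adjusted p = 2e-22).

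The scramble cells show which of these changes differed with the siRNA. Their TGF-β response shares no library with the one above. In it 7639 genes passed (48.3%), 3710 higher (23.4%) and 3929 lower (24.8%), with 870 at least 2-fold higher (5.50%) and 1076 at least 2-fold lower (6.80%). Over the 15832 genes both sets of log2 fold changes had a Pearson r of 0.73 and a Spearman rho of 0.708, given as a description since genes are not independent. The SD of the log2 fold changes was 1.10 in Itgav siRNA cells and 0.874 in scramble cells. Genes higher in both numbered 2881, 65.2% of those higher in Itgav siRNA cells and 77.7% of those higher in scramble cells. Genes lower in both numbered 3070, 65.6% and 78.1%. Opposite calls were made for 196 genes, 2.15% of those that passed in Itgav siRNA cells and 2.57% of those that passed in scramble cells. The difference between the responses, tested as an interaction, passed for 3678 genes (23.2%), 1933 with a more positive (12.2%) and 1745 with a more negative (11.0%) log2 fold change in Itgav siRNA cells. It reached at least 2-fold in 354 (2.24%) and 362 (2.29%) of them.

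**Figure D5:**
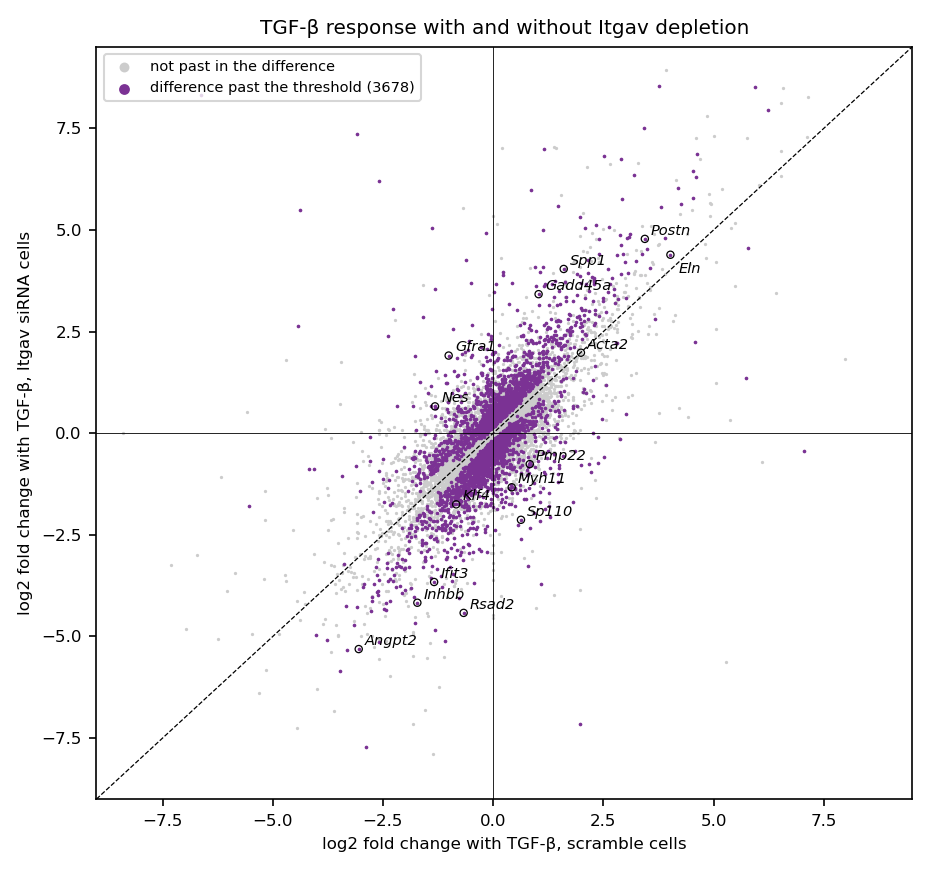
Log2 fold change with TGF-β in Itgav siRNA cells (vertical axis) against that in scramble cells (horizontal axis) for 15832 genes; purple marks the 3678 genes whose responses differed past the threshold, and the dashed line is equality. Acta2 lies on the line, Spp1, Gadd45a and Postn above it, and Myh11, Pmp22, Rsad2 and Inhbb below it.

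The log2 fold change of Acta2 was 1.98 with and 1.99 without the Itgav siRNA (difference -0.01 ± 0.058, edgeR adjusted p = 0.91), although its level with TGF-β was 2060 ± 50 CPM in Itgav siRNA cells and 4230 ± 203 CPM in scramble cells. Col3a1, Itgb5 and Tpm1 had differences of -0.02 ± 0.087, 0.03 ± 0.055 and -0.05 ± 0.048, none past the threshold. Of the 28 contractile genes, 11 had a more negative and 2 a more positive response in Itgav siRNA cells, the latter falling to 1 when any of 9 of the 12 libraries was left out. Myh11 in scramble cells went from 21.3, 22.8 and 24.7 CPM to 28.8, 31.8 and 31.6 CPM. It rose there (0.42) and fell with Itgav siRNA (difference -1.75 ± 0.17, edgeR adjusted p = 8.5e-08).

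Of the 18 matricellular genes, 13 had a more positive and 2 a more negative response (median difference 0.46, against 0.00 over all genes). Spp1 in scramble cells stood at 74.6, 73.5 and 80.0 CPM unstimulated and at 242, 206 and 243 CPM with TGF-β. Its 16.4-fold rise with Itgav siRNA, from 92.7 ± 7.66 CPM, stood against a 3.03-fold rise there (difference 2.44 ± 0.1, edgeR adjusted p = 1.7e-13). Postn (1.34 ± 0.13) and Tgfb1 (1.21 ± 0.093) also had more positive responses, and Eln slightly so (0.38 ± 0.069). The damage-inducible Gadd45a rose 10.7-fold with Itgav siRNA and from 24.6 ± 0.764 to 50.3 ± 2.37 CPM in scramble cells (difference 2.39 ± 0.078, edgeR adjusted p = 6.3e-15). Lhfpl2 and the phosphate transporter Slc20a1 differed by 2.02 ± 0.087 and 1.72 ± 0.08.

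Several genes changed direction. Nestin (Nes), an intermediate filament protein, stood at 109, 109 and 106 CPM and rose to 167, 171 and 175 CPM with Itgav siRNA. In scramble cells it fell from 204, 192 and 201 CPM to 79.2, 76.9 and 82.7 CPM (difference 1.98 ± 0.062, edgeR adjusted p = 4.9e-15). Pmp22, a membrane protein of peripheral myelin, did the reverse, from 287 ± 6.48 to 169 ± 4.18 CPM with Itgav siRNA and from 372 ± 9.11 to 663 ± 30.8 CPM without (difference -1.60 ± 0.056, edgeR adjusted p = 1.5e-14). Gfra1, a receptor for glial cell line-derived factor, rose 3.76-fold with Itgav siRNA and fell in scramble cells (-1.01). The cell death gene Pmaip1 rose 3.41-fold with Itgav siRNA. In scramble cells Pmaip1 went only from 128 ± 3.63 to 117 ± 1.66 CPM (-0.13, edgeR adjusted p = 0.048), a fall close to the threshold. Sp110 and Samhd1, both interferon-inducible, fell 4.39-fold and 2.95-fold and rose in scramble cells (0.63 and 0.29).

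Falls that were deeper with Itgav siRNA included Angpt2 (difference -2.26 ± 0.088), Inhbb (-2.45 ± 0.094), the membrane glycoprotein Gpm6a (-1.78 ± 0.075), the methyltransferase Tmt1a (-1.28 ± 0.058) and Efemp1 (-1.13 ± 0.056). In the interferon list 31 of 47 had a more negative and 1 a more positive response, and in the MHC class I list 16 of 18 had a more negative one. Ifit3, at -3.66 with and -1.34 without Itgav siRNA, differed by -2.32 ± 0.25 (edgeR adjusted p = 4.5e-07). Ifit1 differed by -1.46 ± 0.54 and missed the threshold (edgeR adjusted p = 0.055). In unstimulated scramble cells Ifit1 stood at 8.66, 49.8 and 44.7 CPM, with replicate 1 lowest, and without that library 32 interferon and 14 MHC class I genes had a more negative response.

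Of the 43 cell cycle genes, 30 had a more positive and none a more negative response with Itgav siRNA (median difference 0.48). In scramble cells 41 of them fell. Mki67 went from 166 ± 6.8 to 61.0 ± 3.32 CPM there and from 118 ± 13.6 to 58.6 ± 3.44 CPM with Itgav siRNA (difference 0.43 ± 0.099, edgeR adjusted p = 0.0027).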

How the data were processed

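Bulk RNA-seq values came as 1 deposited table of estimated counts per gene and library. The submitters' processing notes name HISAT2 2.2.1, StringTie 2.1.6 and the mm10 build. Of the deposited counts above 0, 76.2% were exactly whole, and every value was rounded before testing. Counting strand is not given in the sources used here, which leaves overlapping genes uncertain. All 18 libraries entered 1 fit in edgeR 4.0.16 (R 4.3.3, limma 3.58.1), with filterByExpr at a minimum count of 10, TMM factors of 0.925 to 1.07, a mean for each of 6 groups, 12 residual degrees of freedom and a biological coefficient of variation of 6.01%. P-values were adjusted by Benjamini-Hochberg per comparison over 15832 genes. At least 99.91% of each library's counts passed the filter. A standard error is the size of the log2 fold change over the square root of F. The fit was also run on simulated counts in which few genes differed between groups. Far more genes changed here, so that run cannot give the error rates of these data. Tables and plots were made with matplotlib 3.10.9, scipy 1.17.1, numpy 2.4.6 and pandas 2.3.3 under Python 3.11.15. Coordinates are those of GENCODE M21.

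The members, the 32 lists and the 9 marker lists were chosen with earlier results of these data known. Named genes are, first, a panel of 32 (31 tested). To these come the 10 largest rises and the 10 largest falls with Itgav siRNA, then 6 genes in each direction whose responses differed at the smallest p, all called and averaging 5 CPM or more under ordinary symbols, and the former without overlap. Each list adds up to 4 called members of smallest p from its larger side. The 5 largest changes with opposite calls complete the set. Some genes that these rules name are not reported here, though counts and medians include them. Alternatives were an unfiltered table, a 1 CPM filter, DESeq2 1.42.0 (size factors alone, or its test), a fit of only the groups compared, a replicate block, and omission of each library in turn.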

Additional observations from a re-analysis of the deposited data

Results flagged for a closer look

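The results below are differences, by edgeR's interaction test, between the TGF-β response with Itgav siRNA and that in scramble cells. The difference passed for 3678 genes. Values are log2 fold changes with Itgav siRNA minus those in scramble cells, so a positive value is a more positive response with Itgav siRNA.

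Among contractile and matrix genes, Tagln differed by 0.28, Myh11 by -1.75, Eln by 0.38, Fn1 by 0.38, Col1a1 by 0.55, Postn by 1.34 and Efemp1 by -1.13. Spp1, osteopontin, differed by 2.44, and the secreted Ccn1 and Ccn2 by 0.46 and 0.54. Among targets, inhibitors and binders of TGF-β, Smad7 differed by 0.35, Skil by 0.71, Pmepa1 by 0.41, Tgfbi by 0.93, Ltbp2 by 0.89 and the activin chain Inhbb by -2.45. Tgfbi stood at only 1.5 CPM in unstimulated scramble cells and did not pass there (-0.08), so its response there is poorly measured. The integrin chains Itgb1, Itga5 and Itga11 differed by 0.25, 0.55 and 0.41. Klf4 differed by -0.91 and Mki67 by 0.43.

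Interferon-related genes differed by -3.75 (Rsad2), -2.32 (Ifit3), -2.76 (Sp110) and -1.85 (Samhd1), and Ifi27 by 1.89 in the other direction. Rsad2 stood at only 1.54 CPM in unstimulated scramble cells, so its response there is poorly measured. Among the remaining genes, Nes, Gadd45a, Pmaip1, Lhfpl2, Slc20a1 and Gfra1 differed by 1.98, 2.39, 1.90, 2.02, 1.72 and 2.92. Angpt2, Pmp22, Gpm6a and Tmt1a differed by -2.26, -1.60, -1.78 and -1.28.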

How the results depend on the processing

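All 163 named genes kept their direction and call in the Itgav siRNA response under the alternatives named above. Most of them were chosen in these data for a large change or a small p, which made a kept call likely in advance. The count of changed genes there ranged from 8466 to 9496 and for the difference from 3096 to 3927. Genes at least 2-fold higher ranged from 1007 to 1463 and lower from 1133 to 1618. Replicate numbers were not taken as pairs because the labels do not say that they mark a shared culture. In Itgav siRNA cells, same-numbered libraries with and without TGF-β did not deviate together (correlations -0.0235, -0.0146 and -0.00287). The scramble groups were not checked in this way. A replicate block gave 9217 changed genes, 7779 in scramble cells and 3893 for the difference. The differences of Acta2 and Col3a1 changed sign around 0 without passing. With each library left out in turn, that of Acta2 ranged from -0.04 to 0.03 and that of Col3a1 from -0.07 to 0.04. Differences of Cnn1, Itgb8 and Ifit1 missed the threshold as reported and passed under some alternatives, and the cause was not tested; with each library left out they ranged from -0.58 to -0.33, from -0.63 to -0.18 and from -1.83 to -0.99. Of list counts, 15 of 960 moved by over 1.5 times in the Itgav siRNA response, all of them counts of marker lists (endothelial, macrophage, mesothelial and Schwann cell), and 75 of 1440 in the difference, where the contractile genes with a more positive response are the printed count among them. Low counts limit the scramble response of interferon genes.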

Other observations

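Lists not described above also held genes that passed in Itgav siRNA cells. Their counts are to be read beside all genes tested, of which 57.5% passed, 27.9% higher and 29.6% lower. Of 22 p53 targets, 16 fell and 4 rose (median -0.35). The antiproliferative Btg2 fell from 125 ± 3.37 to 65.8 ± 3.83 CPM, Trp53inp1 2.36-fold and the stress-inducible Sesn1 2.34-fold, while the cell death gene Pmaip1 rose from 26.7 ± 1.3 to 91.0 ± 2.3 CPM. Of 23 cholesterol genes, 11 rose, 3 fell and 9 did not pass (median 0.13). The sterol demethylase Cyp51 rose 2.05-fold from 112 ± 5.12 to 229 ± 1.55 CPM. Of 24 glycolysis and hypoxia genes, 13 rose and 7 fell (median 0.18). The lactate exporter Slc16a3 rose 4.98-fold to 14.6 ± 0.487 CPM and Gapdh 1.41-fold, while the vasodilator peptide Adm, named after its value was seen, fell (-4.26). Of 22 ion channel and calcium genes, 11 rose and 7 fell (median 0.36). The cation channel Trpc6 rose 6.77-fold, from only 0.607 to 4.13 CPM, the calcium pump Atp2b4 4.0-fold and the channel subunit Cacna2d1 2.66-fold.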
